A study of Mus musculus with 28 samples.

Results

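Bone marrow derived macrophages grown with interleukin-10 (IL-10) were compared after uptake of apoptotic regulatory T cells (Treg) or apoptotic conventional CD4+ T cells (Tconv). The 8 libraries were chosen by their labels, 4 of Treg-phagocytic and 4 of Tconv-phagocytic macrophages, out of 28 libraries in the series. RNA of wild-type mouse macrophages was sequenced after 48 h with 50 ng/mL IL-10, and T cell death had been induced with ATP and NAD+. Macrophages were sorted by a fluorescent anti-CD4 antibody that the T cells carried, in the dyes BV421 and Ax647, so each library holds cells gated on T cell signal. The 4 IL-10 libraries of macrophages sorted as non-phagocytic are given beside the results as values only. The 4 Treg- and 4 Tconv-phagocytic libraries made with 50 ng/mL interferon-gamma (IFN-γ) for 48 h serve for 1 further comparison. Mouse strain, age, sex and the number of animals are not given in the sources used here.

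Macrophages clear dying cells by efferocytosis: bridging proteins and receptors bind phosphatidylserine on the corpse, the corpse is engulfed, and its protein, lipid and nucleic acid are broken down in the phagolysosome. IL-10 signals through STAT3 and SOCS3, and macrophages grown with it show an anti-inflammatory state with high efferocytic capacity. Treg cells are CD4+ T cells that express the transcription factor Foxp3 and restrain immune responses, while Tconv cells lack that programme. RNA of an engulfed or attached T cell is sequenced with the macrophage's own RNA, and in such bulk libraries fewer cells of a type and less RNA per cell cannot be told apart.

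Expression was deposited as TPM, the share of transcripts in a library that come from a gene, corrected for transcript length. Depth was read from the steps between low TPM values, and it differed between the groups. Treg libraries held 54.7% to 73.1% of the reads of the deepest IL-10 library and Tconv libraries 84.5% or more, with no overlap. Genes above 0 numbered 16942 to 17676 in Treg and 18179 to 18457 in Tconv libraries. The part of depth in the results below was not tested. Correlations of log2 levels between replicates were 0.9863 to 0.9879 for Treg and 0.9891 to 0.9914 for Tconv. The labels do not say whether replicates came from separate cultures or animals, so p-values measure the spread between these libraries, which may be technical. The dye named in the title and the dye named in the library name were opposite for the Treg libraries, so each library is named here after its title alone.

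Macrophage markers were high in both groups. Csf1r, the receptor for macrophage colony stimulating factor, was at 791 ± 39.0 TPM (SD, n = 4) in Treg and 881 ± 23.9 TPM in Tconv libraries, and Adgre1, which encodes F4/80, at 731 ± 21.0 and 759 ± 12.2 TPM. Of 13 tested markers in the macrophage list, 0 were called by limma after Benjamini-Hochberg adjustment in the fit of the 8 libraries. The median log2 fold change of the 13 was -0.044, beside 0 over all genes tested. For Csf1r the groups did not overlap (log2 -0.15, adjusted p = 0.099, limma). Csf1r was called lower when Treg Ax647-1 was left out (log2 -0.19, adjusted p = 0.0164, limma). Calls of Csf1r also came from the fit of the 12 IL-10 libraries (adjusted p = 0.0416) and that of all 28 with variance weights (adjusted p = 0.0389). The summed TPM of the list was 18594 to 19219 in Treg and 18164 to 18527 in Tconv libraries.

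Of 11870 genes tested with limma, 198 (1.67%) were called at an adjusted p under 0.05. Among them 83 (0.699%) were higher and 115 (0.969%) were lower in Treg-phagocytic macrophages. These 2 shares are the background for the counts of each gene list below. Without adjustment 1672 genes had p under 0.05. Most of the rises were small: 57 of the 83 higher genes had a log2 fold change under 0.5. Of the 115 lower genes, 41 had a log2 fold change above -0.5. Large changes were mostly falls, with 50 genes (0.421%) at least 1 log2 lower and 8 genes (0.0674%) at least 1 log2 higher. To be tested, a gene had to reach 1 TPM in 4 libraries. Some of the 50 had a Treg mean under 1 TPM, such as Inhba (0.34 TPM, against 3.44 TPM in Tconv libraries). Of the 8 rises, 4 are immunoglobulin variable segments let in by the Treg libraries alone. Genes let in by 1 group alone had to differ, so both counts are a description. In all 198 the 4 libraries of one group lay above the 4 of the other, which held for 9.28% of all genes tested. The count of calls was sensitive to single libraries: it was 90 without Tconv BV421-1, 83 without Tconv Ax647-2, 125 without Treg BV421-1 and 124 without Treg BV421-2. The direction of all 198 was unchanged in each of 28 alternative fits wherever the gene was tested. Those fits reuse the same libraries, and the groups did not overlap in these genes, so this outcome was largely fixed in advance. The fits with 2 libraries of each group and 1 dye gave 15 to 27 calls.

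**Figure D1:**
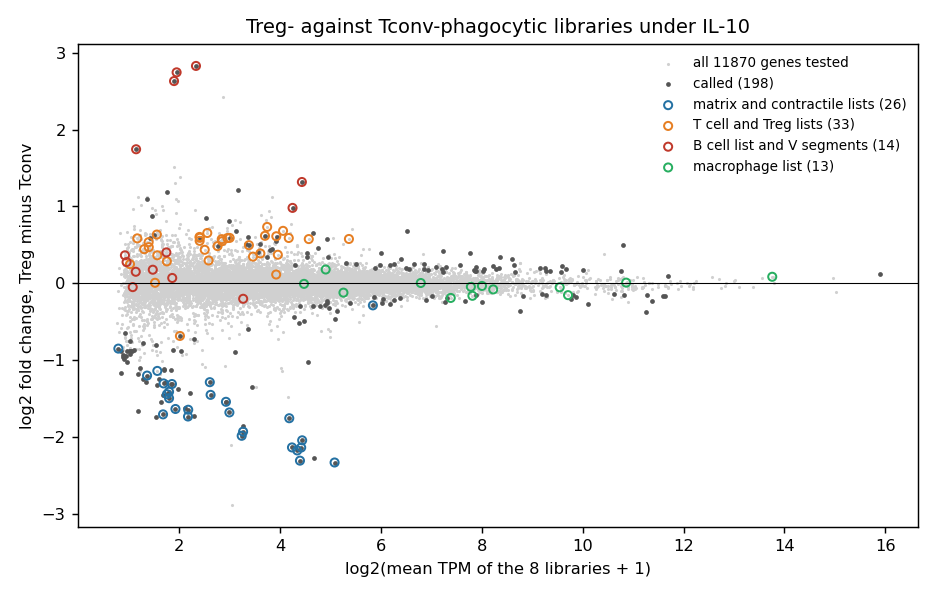
Each point is 1 of the 11870 genes tested, with the log2 of mean TPM plus 1 over the 8 libraries on the x axis and the log2 fold change of Treg against Tconv libraries on the y axis; dark points are the 198 called genes and rings mark gene lists. The matrix and contractile genes lie between -0.29 and -2.33, 5 immunoglobulin genes hold the 5 highest called values, and the macrophage list lies near 0.

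The largest falls were in genes of extracellular matrix and of the contractile apparatus, which fibroblasts and smooth muscle cells express at high levels. Of 19 tested members of the fibroblast and matrix list, 18 were called lower and 0 higher, with a median log2 fold change of -1.68. All 7 tested members of the contractile list were called lower, with a median of -1.45. Over the 25 called members of both lists, the Tconv mean was a median of 4.81 times the Treg mean, from 1.23 times for Tpm1, a tropomyosin that macrophages also express, to 7.82 times for Col5a1, a fibrillar collagen chain. Both lists were chosen with earlier results of these libraries known, so their counts are a description. Of the 26 tested members, 5 reached 1 TPM in Tconv libraries alone and so had to differ to be tested. They were Col5a1, Col5a2, Dcn, Loxl1 and Mmp2, and the counts, medians and ratios above include them. The matrix list had 8 members that reached 1 TPM in all 8 libraries, all called lower, with a median of -2.06. The contractile list had 6 such members, all called lower, with a median of -1.49. The call of Tpm1 was lost without Tconv BV421-2, Tconv Ax647-1, Tconv Ax647-2 or Treg BV421-2 (adjusted p from 0.0611 to 0.0856).

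Acta2 encodes smooth muscle alpha-actin and lies at chr19:34241090-34255590 on the minus strand (GRCm38). It was at 11.87, 7.46, 9.91 and 12.21 TPM in the Treg libraries and at 56.22, 55.68, 55.68 and 53.75 TPM in the Tconv libraries. The 4 non-phagocytic libraries lay between, at 29.49, 26.75, 27.29 and 27.66 TPM. No library of one group reached another group's range. The log2 fold change was -2.33 ± 0.12 (SE), with an adjusted p of 9.52e-06 from limma.

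Col1a1, the main chain of type I collagen, lies at chr11:94936224-94953042 on the plus strand. Its level was 6.48, 5.68, 5.44 and 6.75 TPM in Treg libraries, 33.72, 34.14, 33.05 and 35.00 TPM in Tconv libraries and 17.53, 17.78, 19.50 and 19.38 TPM in non-phagocytic libraries. The order of the 3 groups was that of Acta2, again without overlap. The log2 fold change was -2.30 ± 0.07 (SE; adjusted p = 2.33e-07, limma). Its partner chain Col1a2 had a log2 fold change of -2.17, with means of 6.45 ± 1.70 TPM (SD, n = 4) and 32.1 ± 1.88 TPM.

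Ccn2, known as connective tissue growth factor, was at 6.94 ± 0.54 TPM (SD, n = 4) in Treg and 33.8 ± 0.59 TPM in Tconv libraries (log2 -2.13). Sparc, a collagen-binding glycoprotein, was at 5.99 ± 0.79 and 29.7 ± 3.32 TPM (log2 -2.13). Both genes kept their calls in all 28 alternative fits, as did Acta2, Col1a1, Col1a2 and Tagln.

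Tagln, an actin-binding protein of smooth muscle also called SM22, was at 7.46 ± 0.71 TPM (SD, n = 4) in Treg and 33.9 ± 3.92 TPM in Tconv libraries (log2 -2.04). Igfbp7, a secreted binder of insulin-like growth factors, fell by 1.98 on the log2 scale. Serpinh1, the collagen chaperone HSP47, fell by 1.93, and Serpinf1, which encodes pigment epithelium-derived factor, fell by 1.85. Postn, the matrix protein periostin, was at 1.09 ± 0.18 TPM (SD, n = 4) in Treg and 5.94 ± 0.35 TPM in Tconv libraries. Bgn, the proteoglycan biglycan, was at 7.51 ± 2.59 and 26.8 ± 0.43 TPM (log2 -1.75), and its call was lost in 2 of the 4 fits with 1 dye.

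**Figure D2:**
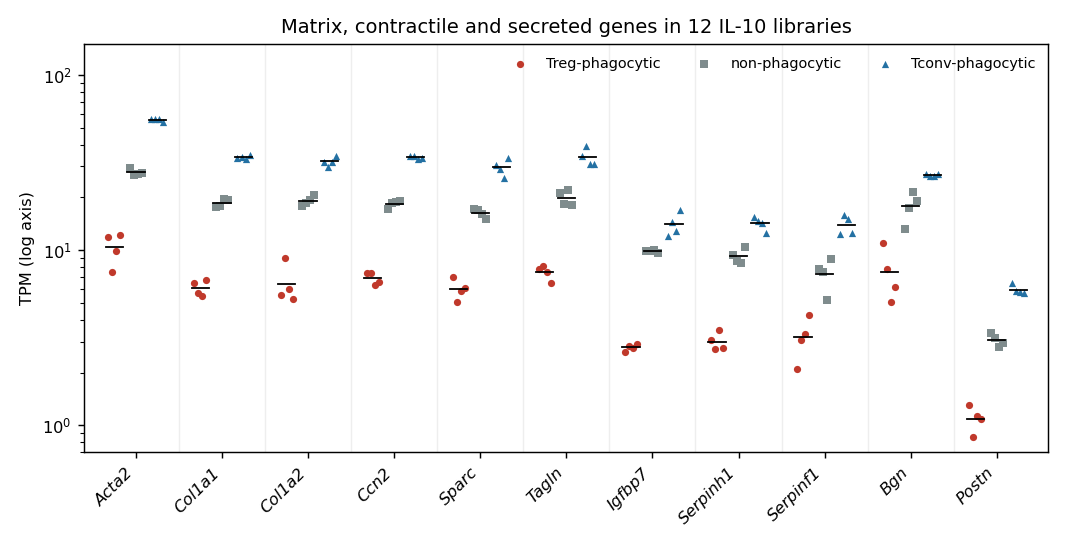
Points are the TPM values (log axis) of 11 genes in each of 12 IL-10 libraries, 4 per group, and bars are group means. For Acta2 the Treg libraries sit between 7.46 and 12.21 TPM, the non-phagocytic ones between 26.75 and 29.49 and the Tconv ones between 53.75 and 56.22, and the group means of the other 10 genes follow the same order.

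The summed TPM of the whole fibroblast and matrix list was 46.7 to 55.0 in Treg, 232.8 to 248.9 in Tconv and 139 to 150 in non-phagocytic libraries. For the contractile list the sums were 74.0 to 83.8, 180 to 188 and 119 to 133 TPM. In 20 of the 25 called members of the 2 lists all 4 non-phagocytic libraries lay between the groups with no overlap. The defining fibroblast receptors were low: Pdgfrb had a mean of 0.225 TPM in Treg and 0.925 TPM in Tconv libraries, Pdgfra 0.065 and 0.375 TPM, and the fibroblast proteoglycan gene Lum was at 0 in all 8. The smooth muscle gene Myh11, a myosin heavy chain, was at 0.0275 and 0.025 TPM. Of the endothelial markers 0 of 3 tested members were called, and their summed TPM was 19.9 to 24.1 in Treg and 19.7 to 25.4 in Tconv libraries. The part of other cells carrying these transcripts was not tested.

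The promoters of such genes were searched for the sites of serum response factor and of TEAD factors, which are known regulators of contractile genes. The 250 bases before the RefSeq start (GRCm38) are shown for Acta2 (chr19:34255374-34255623, minus strand), Myl9, a myosin light chain (chr2:156775214-156775463, plus strand), and Tpm1 (chr9:67049214-67049463, minus strand), because these contractile genes fell together and each holds a match. Capitals mark an M-CAT motif (CATTCC on either strand) in Acta2 and Tpm1 and a CArG box in Myl9.
Acta2: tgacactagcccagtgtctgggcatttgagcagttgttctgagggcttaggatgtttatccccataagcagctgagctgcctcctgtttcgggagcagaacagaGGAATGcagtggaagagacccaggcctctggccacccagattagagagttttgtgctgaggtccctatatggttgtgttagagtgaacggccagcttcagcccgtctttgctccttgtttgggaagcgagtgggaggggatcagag
Myl9: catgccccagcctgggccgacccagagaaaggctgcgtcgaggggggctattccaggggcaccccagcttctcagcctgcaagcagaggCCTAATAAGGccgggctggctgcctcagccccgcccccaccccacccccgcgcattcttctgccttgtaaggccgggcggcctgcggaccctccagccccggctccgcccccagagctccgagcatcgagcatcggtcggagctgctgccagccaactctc
Tpm1: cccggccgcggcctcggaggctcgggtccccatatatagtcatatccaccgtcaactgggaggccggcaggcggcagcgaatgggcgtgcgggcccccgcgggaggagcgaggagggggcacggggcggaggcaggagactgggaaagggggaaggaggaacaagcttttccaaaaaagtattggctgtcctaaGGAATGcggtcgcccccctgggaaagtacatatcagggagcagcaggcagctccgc

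Of the 25 called matrix and contractile genes, 16 had a promoter in the RefSeq table. M-CAT was found in 6 of the 16, namely Acta2, Cald1, Ccn1, Col3a1, Col6a2 and Tpm1, against 14.4% of the 27025 genes in the table and 12.6% of its 32851 windows. The strict CArG box, with no mismatch, was found in 1 of the 16, Myl9, against 1.62% of genes and 1.47% of windows, and 61 windows held both motifs. CArG-like strings with a mismatch, such as ccctatatgg in the Acta2 window, were not searched for and are left in lower case. A match is a string of letters in this window and was not tested for binding.

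The 5 largest rises among called genes were in immunoglobulin genes. In the variable (V) segments, which encode the antigen-binding part of antibodies and are rearranged in B cells, 8 of 348 annotated segments passed the filter on low values and 4 were called higher. The 4 are 2 neighbouring kappa light chain segments, Igkv15-103 and Igkv16-104 on chromosome 6, and 2 heavy chain segments, Ighv7-1 and Ighv1-39 on chromosome 12. A segment could pass the filter only where at least 4 libraries reached 1 TPM, and 302 of the 348 were at 0 in all 8 libraries. The germline V exons are shown to let a reader judge whether their reads could be confused, each from its first base and cut at 300 bases, from GENCODE vM21 (GRCm38). Capitals mark bases that are not matched in an alignment of the coding parts of the 2 kappa segments with each other, and of the 2 heavy segments with each other.
Igkv15-103: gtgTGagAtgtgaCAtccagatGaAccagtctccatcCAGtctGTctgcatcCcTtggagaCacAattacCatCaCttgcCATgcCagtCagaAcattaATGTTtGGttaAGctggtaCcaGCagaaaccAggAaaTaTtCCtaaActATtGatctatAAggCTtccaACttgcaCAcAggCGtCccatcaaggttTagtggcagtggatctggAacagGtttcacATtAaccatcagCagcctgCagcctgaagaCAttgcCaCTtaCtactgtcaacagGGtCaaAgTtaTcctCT
Igkv16-104: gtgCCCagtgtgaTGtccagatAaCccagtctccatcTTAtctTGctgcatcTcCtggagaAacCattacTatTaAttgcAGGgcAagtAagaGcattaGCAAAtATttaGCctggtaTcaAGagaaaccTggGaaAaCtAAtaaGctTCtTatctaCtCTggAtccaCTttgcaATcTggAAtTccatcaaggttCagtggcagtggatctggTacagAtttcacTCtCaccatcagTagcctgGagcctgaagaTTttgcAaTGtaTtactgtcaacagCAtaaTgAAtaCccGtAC
Ighv7-1: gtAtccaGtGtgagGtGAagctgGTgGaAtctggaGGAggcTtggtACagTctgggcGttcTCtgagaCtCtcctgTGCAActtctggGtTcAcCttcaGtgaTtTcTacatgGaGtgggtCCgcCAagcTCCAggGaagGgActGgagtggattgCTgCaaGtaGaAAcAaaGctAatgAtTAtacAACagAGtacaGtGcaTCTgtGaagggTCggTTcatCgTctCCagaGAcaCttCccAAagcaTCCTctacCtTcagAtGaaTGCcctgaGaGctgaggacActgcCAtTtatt
Ighv1-39: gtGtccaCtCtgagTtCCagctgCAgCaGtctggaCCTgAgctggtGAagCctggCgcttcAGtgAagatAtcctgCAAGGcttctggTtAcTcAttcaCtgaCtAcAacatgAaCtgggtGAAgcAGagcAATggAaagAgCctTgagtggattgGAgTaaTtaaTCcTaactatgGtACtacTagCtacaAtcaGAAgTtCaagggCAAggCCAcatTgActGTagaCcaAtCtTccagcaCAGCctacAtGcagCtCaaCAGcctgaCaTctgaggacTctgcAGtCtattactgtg

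The kappa exons lie at chr6:68437628-68437925 and chr6:68425774-68426072 on the plus strand, and the printed parts of the heavy exons at chr12:113896425-113896724 and chr12:114914604-114914903 on the minus strand. The coding parts of Igkv15-103 and Igkv16-104 were identical at 252 bases, or 72.4% of the longer one, and those of Ighv7-1 and Ighv1-39 at 229 bases, or 63.1%. No stretch of 50 bases in Igkv15-103, Igkv16-104 or Ighv7-1 occurred in a transcript of another gene, whereas 22 of 302 such stretches of Ighv1-39 did. Germline sequence is shown, and the rearranged sequence in these libraries was not analysed here.

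Igkv16-104 was at 5.04, 6.10, 6.67 and 5.08 TPM in the 4 Treg libraries and listed at 0 in all 4 Tconv libraries. In reads recovered from the TPM steps, this was about 6, 9, 10 and 8 reads. The non-phagocytic libraries were at 0 in 3 and at 0.52 TPM, about 1 read, in the other. Ighv7-1 was at 6.48, 4.70, 2.94 and 7.69 TPM in Treg libraries and listed at 0 in the 4 Tconv and 4 non-phagocytic libraries. Igkv15-103 was at 3.42, 8.08, 10.19 and 9.71 TPM in Treg libraries, at 0.91 TPM (about 2 reads) in Tconv Ax647-2 and at 0 in the other 3. Ighv1-39, at a mean of 2.43 TPM, stood on 2 to 4 reads per Treg library and was at 0 in all others. Every Treg library held all 4 segments, which the filter required of segments below 1 TPM in the Tconv libraries.

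These 4 segments passed the filter through the Treg libraries alone and so had to differ, and their levels are given as a description with no test. The summed TPM of all 348 segments was 35.8 to 39.2 in Treg, 9.45 to 12.5 in Tconv and 8.83 to 14.7 in non-phagocytic libraries.

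The constant regions rose with them. Igkc, the kappa constant region at chr6:70726435-70726966, was at 33.05, 32.18, 28.63 and 24.65 TPM in Treg libraries and at 7.40, 14.20, 13.67 and 10.99 TPM in Tconv libraries. Non-phagocytic libraries were at 10.45 to 12.91 TPM, within the Tconv range. The log2 fold change was 1.32 ± 0.18 (SE; adjusted p = 0.00524, limma). Ighm, the constant region of IgM at chr12:113418558-113422730, was at 24.93, 22.62, 25.25 and 23.83 TPM in Treg and at 9.78, 12.86, 12.13 and 12.53 TPM in Tconv libraries, a log2 fold change of 0.98 ± 0.08 (SE; adjusted p = 0.000211). Each of the 2 calls was lost in 3 of the 4 fits with 1 dye and held in the other 25 alternatives.

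Of 20 members of the B cell and plasma cell list, 6 were tested and 2 were called higher, Igkc and Ighm, while 14 did not pass the filter. Cd22, a sialic acid-binding receptor of B cells, had means of 7.97 TPM in Treg and 9.31 TPM in Tconv libraries and Cd79b, a signalling chain of the B cell receptor, of 2.71 and 2.56 TPM, with adjusted p-values of 0.495 and 0.874 from limma. Ms4a1, which encodes CD20, had means of 0.25 TPM in Treg and 0.0875 TPM in Tconv libraries. Cd79a, the partner of Cd79b, was at 1.00 to 1.34 TPM in Treg and 0.40 to 0.80 TPM in Tconv libraries and was not called. It passed the filter through the Treg libraries alone and so had to differ to be tested, and its level is a description. Jchain, which joins IgM and IgA multimers in plasma cells, was at 0.75 to 1.77 and 0.24 to 0.79 TPM and was not tested. The part of B lineage cells in the rise of Igkc and Ighm was not tested.

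Of 12 tested members of the Treg list, 3 were called higher, Foxp3, Tnfrsf18 and Izumo1r, and 1 was called lower, Lrrc32. Over all genes tested, 0.699% were called higher and 0.969% lower. The median log2 fold change of the list was 0.478, beside 0 over all genes. The 8 other members of the 20 did not pass the filter. The summed TPM of the list was 53.8 to 59.2 in Treg, 34.5 to 43.0 in Tconv and 28.6 to 31.4 in non-phagocytic libraries.

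Foxp3, the factor that defines Treg cells, was at 4.21, 5.78, 6.34 and 5.27 TPM in Treg libraries and at 2.97, 3.66, 3.43 and 2.86 TPM in Tconv libraries. The groups did not overlap, but Foxp3 was not absent after Tconv uptake, and non-phagocytic libraries ranged from 1.85 to 4.92 TPM. The log2 fold change was 0.59 ± 0.12 (SE) with an adjusted p of 0.0447 from limma. That call was lost in 22 of 27 alternatives, among them leaving out any one library except Treg Ax647-1, where the adjusted p was 0.0733 to 0.162.

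Izumo1r, the folate receptor 4 that Treg cells carry, was at 16.18, 13.61, 14.87 and 14.18 TPM in Treg and 8.03, 10.11, 10.61 and 8.44 TPM in Tconv libraries. Its log2 fold change was 0.62 ± 0.10 (SE; adjusted p = 0.0113, limma) and was not called without Tconv Ax647-2 (adjusted p = 0.0544). Tnfrsf18, which encodes the costimulatory receptor GITR, was at 6.21 to 7.28 TPM in Treg and 3.87 to 5.11 TPM in Tconv libraries (log2 0.48, adjusted p = 0.0364, limma). Tnfrsf18 was called in 10 of 28 alternatives and was lost without any 1 library except Treg Ax647-2 (adjusted p from 0.0718 to 0.103). Il2ra, the high-affinity interleukin-2 receptor chain CD25, had means of 2.12 ± 0.56 and 1.14 ± 0.15 TPM (SD, n = 4; log2 0.54, adjusted p = 0.122, limma). Ctla4, an inhibitory receptor of Treg cells, had means of 2.06 ± 0.27 and 1.21 ± 0.20 TPM (log2 0.47, adjusted p = 0.106, limma).

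Lrrc32, also called GARP, holds latent TGF-β on the surface of activated Treg cells and went the other way. It was at 2.23, 2.30, 1.69 and 2.18 TPM in Treg libraries and at 3.60, 4.23, 4.41 and 3.69 TPM in Tconv libraries (log2 -0.68, adjusted p = 0.0128, limma). Non-phagocytic libraries were at 2.51 to 3.76 TPM, between the groups in mean, as for the matrix genes, and without Tconv BV421-2 the call was lost (adjusted p = 0.0513).

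General T cell genes pointed the same way with few calls. All 21 tested members of the T cell receptor and signalling list had a log2 fold change above 0, beside 5953 of all 11870 genes, and their median was 0.575. The Treg libraries lay above the Tconv libraries without overlap in 12 of the 21, against 4.13% of all genes, and 2 were called higher, Cd3d (log2 0.59) and Thy1 (log2 0.50). Thy1 was called in 8 of 28 alternatives and was lost without any 1 library except Treg Ax647-1 (adjusted p from 0.0528 to 0.157). Cd3d was called in 18 and was lost without Tconv BV421-1 (adjusted p = 0.0534). Trac, the constant region of the T cell receptor alpha chain, was at 13.33, 27.44, 21.45 and 21.33 TPM in Treg and 12.61, 13.97, 13.87 and 12.26 TPM in Tconv libraries. Treg Ax647-1 lay within the Tconv range, and Trac was called only in the fit without that library (log2 0.78, adjusted p = 0.00650, against 0.59 and 0.140 with it). Cd4, the coreceptor to which the sorting antibody binds, was at 10.98 to 15.91 TPM in Treg and 8.50 to 10.98 TPM in Tconv libraries (log2 0.39, adjusted p = 0.149, limma).

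Summed over the T cell receptor list, levels were 238 to 290 TPM in Treg, 153 to 213 TPM in Tconv and 112 to 131 TPM in non-phagocytic libraries. The sums did not overlap between the groups, and what lies behind their difference was not tested. Whether more T cell RNA per library or more Treg transcripts per T cell lies behind the Foxp3 difference cannot be told apart here. The median log2 fold change was 0.478 for the Treg list and 0.575 for the general T cell list. This scale understates folds of low genes, and the 2 medians were not compared by a test. Variable segments of the T cell receptor had 0 calls among 21 tested of 170, with a median of 0.438. Of 8 tested genes of the GIMAP family, GTPases of lymphocyte survival, 3 were called higher and 0 lower, a count made after the values were seen. Over all genes tested, 0.699% were called higher. Gimap1 was at 9.04 ± 0.52 TPM (SD, n = 4) in Treg and 4.75 ± 0.78 TPM in Tconv libraries (log2 0.82). Gimap6 was at 11.3 ± 0.40 and 7.195 ± 1.62 TPM (log2 0.61) and lost its call in 19 of 28 alternatives, including each leave-one-out fit except that without Tconv BV421-2 (adjusted p of the others 0.0845 to 0.155). Ltb, the lymphotoxin beta chain that lymphocytes express, was at 29.98 ± 3.85 and 18.7 ± 1.49 TPM (SD, n = 4; log2 0.65).

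**Figure D3:**
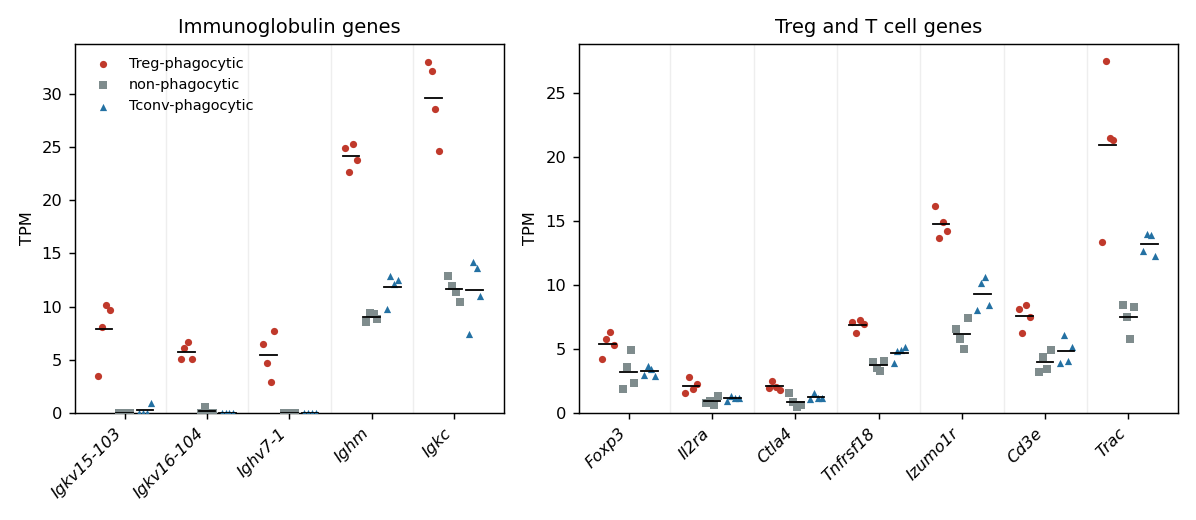
Points are TPM values in each of 12 IL-10 libraries, 4 per group, with bars at group means, for 5 immunoglobulin genes on the left and 7 Treg and T cell genes on the right. The 3 V segments are at or near 0 outside the Treg libraries, whereas Foxp3 spans 4.21 to 6.34 TPM in Treg and 2.86 to 3.66 TPM in Tconv libraries.

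Among genes known for expression in macrophages, Mmp12, the macrophage elastase at chr9:7344381-7369499, had the largest rise among the named genes. It was at 108.91, 115.65, 116.53 and 108.44 TPM in Treg libraries and at 71.67, 68.79, 70.51 and 67.80 TPM in Tconv libraries. Both groups lay below the non-phagocytic libraries, at 209.22 to 224.89 TPM, and Tconv libraries were the lowest. The log2 fold change was 0.69 ± 0.04 (SE; adjusted p = 9.76e-06, limma), and Mmp12 was called in all 28 alternative fits. Of 11 tested metalloproteinases and inhibitors, Mmp12 was the 1 called higher and 4 were called lower, against 0.699% and 0.969% of all genes. The 4 were Mmp2 (log2 -1.44), Timp3 (-1.31), Timp1 (-0.89) and Mmp14 (-0.25). Mmp2 is also a member of the matrix list and reached 1 TPM in Tconv libraries alone, so it had to differ to be tested. Mmp14 was lost without any 1 library except Tconv Ax647-1 and Treg Ax647-2 (adjusted p from 0.0677 to 0.125), and Timp1 without Tconv BV421-1, Tconv Ax647-1 or Treg BV421-2 (0.0559 to 0.0716).

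Vcam1, an adhesion receptor for integrins, showed the opposite relation to non-phagocytic cells. It was at 18.70, 17.22, 17.46 and 16.03 TPM in Treg, 11.18, 12.07, 12.84 and 8.63 TPM in Tconv and 0.78 to 1.08 TPM in non-phagocytic libraries. The log2 fold change between Treg and Tconv was 0.61 ± 0.11 (SE; adjusted p = 0.0239, limma). That call was lost in 13 of 28 alternatives, including without Tconv BV421-1 or without any of the 4 Treg libraries (adjusted p from 0.0505 to 0.0857). Vcam1 was the 1 gene called among 15 tested adhesion molecules and leukocyte integrins.

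Receptors and bridging proteins that recognise apoptotic cells moved in both directions. Of 22 tested members, 2 were called higher and 3 lower, beside 0.699% and 0.969% of all genes tested, with a median of -0.087. Mfge8, which bridges phosphatidylserine to integrins, was at 247.46, 258.66, 250.01 and 248.49 TPM in Treg and 221.42, 215.91, 205.17 and 225.24 TPM in Tconv libraries (log2 0.22). Anxa1, a phosphatidylserine-binding annexin, rose by 0.19, and its call was lost without Tconv BV421-1, Tconv BV421-2, Tconv Ax647-2, Treg BV421-1 or Treg BV421-2 (adjusted p from 0.0503 to 0.0695). Thbs1, the bridging protein thrombospondin 1, was at 374.74 to 380.45 TPM in Treg and 480.01 to 491.22 TPM in Tconv libraries (log2 -0.36, adjusted p = 1.35e-05, limma).

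The complement component C1q opsonises dying cells, and 2 of its 3 chains were called lower. C1qb was at 2455 ± 43.5 TPM (SD, n = 4) in Treg and 2872 ± 43.2 TPM in Tconv libraries (log2 -0.22, adjusted p = 0.000445, limma). C1qa was at 812 ± 16.5 and 936 ± 32.6 TPM (log2 -0.20, adjusted p = 0.00910, limma), and C1qc had a log2 fold change of -0.17 with an adjusted p of 0.0892. The phosphatidylserine receptor kinase Mertk was at 30.29 to 31.51 TPM in Treg and 25.74 to 28.60 TPM in Tconv libraries (log2 0.18, adjusted p = 0.103, limma), so the groups were apart but the test was not passed. Its relative Axl was at 58.44 to 64.05 and 53.80 to 65.26 TPM, overlapping (log2 0.09, adjusted p = 0.573, limma). Of 19 tested genes of engulfment and phagosome maturation, 0 were called and the median was -0.008.

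Called genes of the IL-10 response fell by small amounts. Of 20 tested members, 3 were called lower and 0 higher, beside 0.969% and 0.699% of all genes tested. The median over the 20 was -0.039. Treg libraries lay below Tconv libraries without overlap in 5 of the 20 and above in 1, against 5.15% and 4.13% of all genes. The summed TPM of the list was 2572 to 2635 in Treg and 2680 to 2830 in Tconv libraries. Socs3, the feedback inhibitor that IL-10 induces through STAT3, was at 134.29, 144.43, 141.75 and 136.33 TPM in Treg and 163.75, 164.56, 162.30 and 171.26 TPM in Tconv libraries. Its log2 fold change was -0.24 ± 0.03 (SE; adjusted p = 0.00475, limma), and the call was lost in the fits of all 28 libraries with and without variance weights (adjusted p = 0.257 and 1) and in the 4 fits with 1 dye. Il4ra, the interleukin-4 receptor chain that IL-10 raises, was at 181.74 to 191.74 TPM in Treg and 208.31 to 226.76 TPM in Tconv libraries (log2 -0.22, adjusted p = 0.00921, limma). Fcgr2b, the inhibitory Fc receptor, fell by 0.16 on the log2 scale.

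Other markers of this state were near equal. Mrc1, the mannose receptor, was at 81.7 ± 1.48 TPM (SD, n = 4) in Treg and 82.1 ± 3.38 TPM in Tconv libraries, with a log2 fold change of -0.0031 ± 0.038 (SE). Il1rn, the interleukin-1 receptor antagonist, was at 7.13 ± 1.18 and 7.11 ± 1.58 TPM. The cytokine Il10 itself was at 1.87 ± 0.38 and 1.56 ± 0.31 TPM (log2 0.17, adjusted p = 0.664, limma). Arg1, the arginase of alternative activation, had means of 0.662 and 1.00 TPM and did not pass the filter. Cd274, the checkpoint ligand PD-L1, was at 125 ± 2.42 and 121 ± 3.75 TPM (log2 0.05), and 0 of 13 tested checkpoint and costimulatory genes were called.

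MHC class II molecules present antigen to CD4+ T cells. Of 12 tested members, 3 were called lower and 0 higher, with a median of -0.106 and 4 values above 0, and Treg libraries lay below Tconv libraries without overlap in 7 of the 12, against 5.15% of all genes. H2-Ab1, a class II beta chain, was at 857.77 to 887.47 TPM in Treg, 958.70 to 1029.67 TPM in Tconv and 677.49 to 736.88 TPM in non-phagocytic libraries (log2 -0.18, adjusted p = 0.00691, limma). Cd74, the invariant chain, was at 2923 ± 40.8 TPM (SD, n = 4) in Treg and 3273 ± 84.5 TPM in Tconv libraries (log2 -0.16). H2-Eb1 fell by 0.15 on the log2 scale. All 3 were above the non-phagocytic level in both groups.

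Lysosomal and lipid genes differed by small amounts. Of 31 tested lysosomal genes, 2 were called higher, the proton pump subunit Atp6v0d2 (log2 0.22) and the acid lipase Lipa (log2 0.17, lost without Tconv Ax647-2 at an adjusted p of 0.0506). In the LXR and lipid efflux list, 1 of 13 was called higher and 1 lower. Lpl, which hydrolyses lipoprotein triglyceride, was at 336.62 to 355.70 TPM in Treg and 298.77 to 312.45 TPM in Tconv libraries (log2 0.19). Pltp, the phospholipid transfer protein, was at 2329 ± 32.0 and 2602 ± 71.2 TPM (SD, n = 4; log2 -0.16), and without Tconv Ax647-2 its adjusted p was 0.0510. The cholesterol exporter Abca1 was at 57.6 ± 3.86 and 57.3 ± 3.80 TPM (SD, n = 4; log2 0.01), and 0 of 22 genes of cholesterol synthesis were called.

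**Figure D4:**
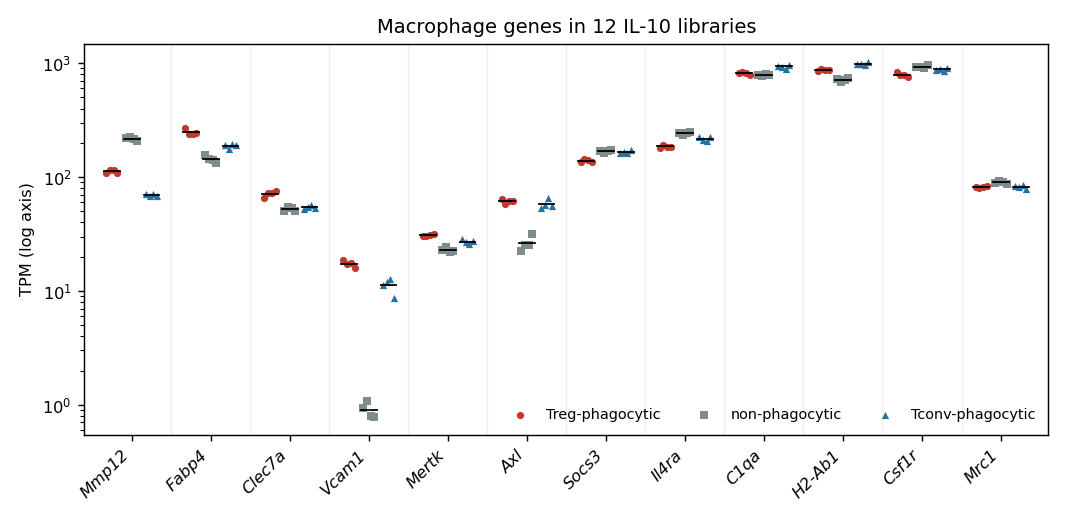
Points are TPM values (log axis) of 12 macrophage genes in each of 12 IL-10 libraries, 4 per group, with bars at group means. Mmp12 orders the groups as Tconv, Treg and non-phagocytic from low to high, Vcam1 as non-phagocytic, Tconv and Treg, and Mrc1 lies near 82 TPM in both phagocytic groups.

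Some cytokine and chemokine genes rose, while type I interferon genes had no calls. Of 22 tested cytokines and chemokines, 4 were called higher and 0 lower, beside 0.699% and 0.969% of all genes tested. The 4 were Cxcl10 (log2 0.63), Ccl3 (0.31), Spp1 (0.16) and Ccl6 (0.15). Cxcl10, at 2.44 TPM in Treg and 1.22 TPM in Tconv libraries, was called in 7 of 28 alternatives and was lost without any 1 library except Treg Ax647-1 (adjusted p from 0.0857 to 0.152). Ccl3 was called in 14 and was lost without Tconv BV421-1, Tconv BV421-2, Tconv Ax647-1, Treg Ax647-1 or Treg BV421-1 (adjusted p from 0.0572 to 0.0888). Spp1, the matrix protein osteopontin, was at 1821 ± 34.1 TPM (SD, n = 4) in Treg, 1633 ± 47.2 TPM in Tconv and 2293 ± 41.8 TPM in non-phagocytic libraries. Of 21 tested type I interferon genes 0 were called, with a median of 0.183 and 17 of 21 log2 fold changes above 0. Cell cycle genes (0 of 21), purine and NAD handling (0 of 18), mitochondrially encoded protein genes (0 of 13) and replication-dependent histones (0 of 15) gave no calls.

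Abundant called genes are given without predicted genes, pseudogenes and genes named by a clone accession, which leaves out Gm29216 (log2 -0.37) and CT010467.1 (log2 0.50). The 8 most abundant of the others that rose were Fth1, B2m, Spp1, Rps20, Tmsb10, Prdx1, Ccl6 and Sat1, with log2 fold changes from 0.10 to 0.23. Fth1, the ferritin heavy chain, was the highest, at 63673.5 ± 917 TPM (SD, n = 4) in Treg and 58611 ± 352 TPM in Tconv libraries. The 8 most abundant of the others that fell were Saa3, Cd74, C1qb, Pltp, Actb, Eef2, Ifitm2 and H2-Ab1, from -0.14 to -0.26. Ifitm2, an interferon-induced membrane protein, was at 993 ± 25.6 and 1196 ± 15.3 TPM (SD, n = 4; log2 -0.26). Among these 16 genes, Fth1, Saa3, Cd74, C1qb, Ifitm2 and H2-Ab1 kept their calls when any 1 library was left out, and the other 10 lost theirs without at least 1 library, at adjusted p-values from 0.0504 to 0.157.

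**Figure D5:**
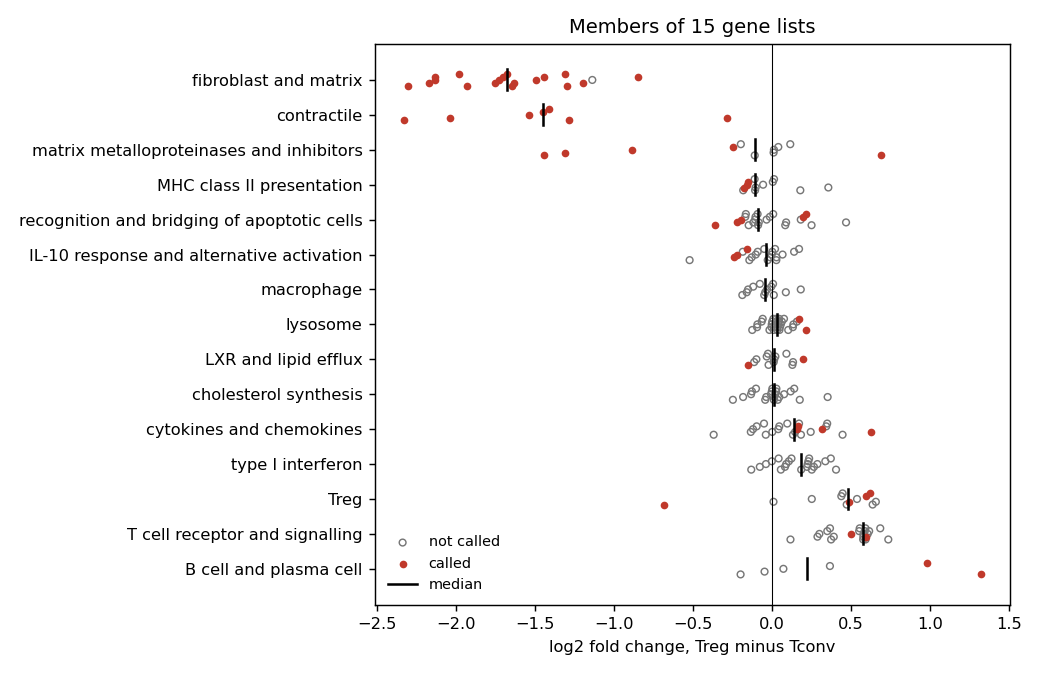
Each point is 1 tested gene of 15 lists, with its log2 fold change of Treg against Tconv libraries on the x axis; filled points were called and vertical bars are list medians. The matrix and contractile lists have medians of -1.68 and -1.45, the T cell receptor and Treg lists of 0.575 and 0.478, and most other lists lie close to 0.

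The same uptake comparison under IFN-γ served to ask whether the differences depended on the cytokine. In a limma fit of 16 libraries, 1614 of 12918 genes (12.5%) had a Treg against Tconv difference under IL-10 that was not the same as that under IFN-γ. Of these, 1121 were more positive under IL-10 and 493 more negative, or 1316 and 286 without scaling of the libraries. Matrix and contractile genes were low with IFN-γ: Col1a1 had means of 0.258 ± 0.12 TPM (SD, n = 4) in Treg and 0.683 ± 0.21 TPM in Tconv libraries, and Acta2 0.543 ± 0.61 and 0.628 ± 0.61 TPM. The difference of the 2 log2 fold changes was -1.88 for Col1a1 (adjusted p = 1.17e-05, limma) and -2.26 for Acta2 (adjusted p = 0.000681, limma). At such levels the pseudocount of 1 shrinks a fold: the Tconv mean of Col1a1 was 2.65 times the Treg mean under IFN-γ and 5.58 times under IL-10. With a pseudocount of 0.1 the difference was -1.36 for Col1a1 (adjusted p = 0.00977) and -2.21 for Acta2 (adjusted p = 0.134), so the call of Acta2 was lost. For Ccn2 the ratio was 5.17 under IFN-γ and 4.88 under IL-10, and for Serpinh1 8.04 and 4.74. Their differences turned from -1.36 and -1.06 to 0.35 and 0.33 with the smaller pseudocount (adjusted p = 0.762 and 0.738), so no dependence on the cytokine is read from them.

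Immunoglobulin constant regions and Foxp3 had higher means with IFN-γ, at like levels after both kinds of uptake. Ighm was at 37.8 ± 6.17 TPM (SD, n = 4) in Treg and 39.9 ± 2.35 TPM in Tconv libraries with IFN-γ, and the difference between the cytokines was 0.99 on the log2 scale (adjusted p = 0.00120, limma). Every IFN-γ library of the 8 had Igkv15-103 and Ighv7-1 at 0, and Igkv16-104 was at 0 in the 4 Treg libraries with a mean of 1.31 TPM in the Tconv libraries. Foxp3 was at 12.4 ± 1.78 TPM (SD, n = 4) in Treg and 13.97 ± 3.22 TPM in Tconv libraries with IFN-γ, and its difference between the cytokines was 0.66 (adjusted p = 0.101, limma).

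For several macrophage genes the uptake difference also depended on the cytokine. Mertk had a log2 fold change of 0.18 under IL-10 and -0.59 under IFN-γ (difference 0.76, adjusted p = 0.000788, limma). Cd274 was near equal under IL-10 (0.05) and lower in Treg libraries under IFN-γ (-0.50; difference 0.55, adjusted p = 0.000204, limma). H2-Ab1 was lower after Treg uptake with both cytokines, by 0.18 with IL-10 and by 0.55 with IFN-γ. Mmp12 had log2 fold changes of 0.69 and 0.43, and the test of their difference was not passed (difference 0.25, adjusted p = 0.217, limma).

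Terms for both readings of the dye, added together to the 8-library fit, gave 0 calls by limma for the dye of the titles and 0 for the dye of the library names, with 530 and 528 genes at an unadjusted p under 0.05. The first principal component of the 8 libraries held 24.8% of the variance and separated Treg from Tconv libraries.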

How the data were processed

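The authors deposited TPM per gene for each of 28 libraries (55487 gene IDs, 2 decimals). The submitters' processing notes name STAR, RSEM and mm10, with no versions, and the annotation is not given in the sources used here. Libraries were directional and from polyA RNA, per the labels. Symbols came from GENCODE vM21 and matched 55141 IDs. Members and gene lists were chosen with earlier results of these data known.

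TPM were divided by a trimmed-mean factor (30% of ratios and 5% of levels trimmed at each end), and log2(TPM + 1) was fitted with limma 3.58.1 (R 4.3.3, trended eBayes) for genes that reached 1 TPM in 4 or more of the 8 libraries. A gene was called at a Benjamini-Hochberg adjusted p under 0.05 over all genes. Fold changes on this scale understate those of low genes. The difference between cytokines used 1 variance weight per group. The fit was tested on simulated data.

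TPM give no depth directly. In genes with 1 transcript, TPM times length less 230 bases were whole multiples of 1 read within 0.15 reads for 89.42% to 91.47% of values, beside 30% by chance. These relative depths and read numbers are approximate. TPM keep no exact reads, so no count test was run.

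Named genes were the 12 largest rises and 12 largest falls among called genes, predicted genes and pseudogenes left out, with a mean of at least 5 TPM in the higher group, the 8 most abundant in each direction, and 26 fixed genes; named list members stand beside their list's count. Of the named genes and list members, 2 are not reported here. Same-numbered libraries did not deviate together (correlations of -0.029 to 0.019), so the numbers were not taken as pairs.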

Additional observations from a re-analysis of the deposited data

Results flagged for a closer look

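Outlying libraries were looked for among the named genes in each group of 4, a check that marks about 1 group in 20 by chance. Igkv15-103 was at 0.91 TPM in Tconv Ax647-2 and at 0 in the other 3 Tconv libraries. Rps20 was at 920 TPM in Tconv BV421-1, below 973 to 982 TPM in the others. Ifitm2 was at 955 TPM in Treg BV421-2, below 1005 to 1008 TPM in the others.

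The Treg against Tconv log2 fold change differed between IL-10 and IFN-γ for 28 of the named genes reported here, by limma with adjusted p-values under 0.05. Over all 12918 genes in that fit the share was 12.5%. Many of the named genes were chosen for their difference under IL-10, so a high count is partly built in and is a description. The values below are the fold change under IL-10 minus that under IFN-γ. Immunoglobulin and lymphocyte genes had 2.75 for Igkv15-103, 3.58 for Igkv16-104, 2.55 for Ighv7-1, 1.38 for Igkc, 0.99 for Ighm and 0.62 for Ltb. Igkv15-103 and Ighv7-1 were at 0 in all 8 IFN-γ libraries, so their values restate the difference under IL-10 and test nothing further, and the 3 V segments reached the filter in IL-10 Treg libraries. Matrix, contractile and secreted-protein genes had -2.26 for Acta2, -1.88 for Col1a1, -1.71 for Col1a2, -1.36 for Ccn2, -2.85 for Sparc, -1.31 for Tagln, -1.06 for Serpinh1 and -1.66 for Postn. These genes were low under IFN-γ, where the pseudocount of 1 shrinks a fold. With a pseudocount of 0.1 the value was 0.35 for Ccn2 and 0.33 for Serpinh1, turned in direction, and the calls of Acta2 (adjusted p = 0.134), Col1a2 (0.0895) and Tagln (0.265) were lost, as was that of Ltb (0.0504). Those of Col1a1, Sparc and Postn held (0.00977, 0.000366 and 0.0435). Under IFN-γ, however, Postn was at 0 TPM in the Treg libraries and at a mean of 0.0275 TPM in the Tconv libraries. Its value therefore nearly restates the difference under IL-10 and tests little further.

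Sparc was the 1 gene of these with a positive fold change under IFN-γ, 0.72, at 3.24 TPM in Treg and 1.55 TPM in Tconv libraries. Abundant genes had -0.16 for Fth1, 0.33 for Tmsb10, -0.22 for C1qb, -0.47 for Pltp, -0.36 for Actb, -0.33 for Eef2, -0.48 for Ifitm2 and 0.37 for H2-Ab1. Pltp, Actb, Eef2 and Ifitm2 were lower in Treg libraries under IL-10 and had values of 0.31, 0.20, 0.18 and 0.21 under IFN-γ. The fixed macrophage genes had -0.36 for Mrc1, 0.76 for Mertk, 0.55 for Cd274, -0.39 for C1qa, -0.25 for Adgre1 and -0.34 for Csf1r.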

How the results depend on the processing

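Against 198 calls, the fit without trend gave 130 calls, the fit of all 28 libraries 107, that with variance weights 360, and a threshold of 1 log2 58. The fits with 1 dye gave 22 and 15 (BV421 of titles and of library names) and 16 and 27 (Ax647), with 2 libraries per group. Leaving out 1 library gave 83 to 192 calls. With a filter of 5 TPM higher genes outnumbered lower ones, 74 to 66, and with no filter there were 40 and 142. The replicate block, a fit with the replicate label of dye and number as a term, gave 116 calls by titles and 97 by library names. With the number alone as the term there were 184. The difference between cytokines gave 1161 to 1771 calls in its alternatives, and single low genes turned or lost their call with a pseudocount of 0.1. Leaving out 1 library gave 0 to 2 calls for the dye of the titles and 0 to 1 for that of the library names.

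Reversals were found only in 3 uncalled genes near 0. Mrc1 was at 0.0019 (BV421, titles) and 0.019 (Ax647, library names). Il1rn was at -0.055 (BV421, library names) and -0.0020 (Ax647, titles), and Abca1 at -0.045 and -0.048 in those fits. Leaving out 1 library gave -0.029 to 0.017 for Mrc1, -0.081 to 0.10 for Il1rn and -0.018 to 0.062 for Abca1. Of the 198 calls, 34 were made in all 24 alternatives with at least 7 libraries. Depth limits genes of few reads, such as the V segments with 2 to 14 reads per Treg library.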

Other observations

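The test was passed by 8 genes called higher and 26 called lower in all 24 alternatives that kept at least 7 libraries. Besides Mmp12, Ighm, Igkc and Gimap1, the 8 risen genes were Fabp4, Clec7a, Il7r and Atp6v0d2, and Fabp4 and Clec7a lie outside the naming rule and are given here after their values were seen. Fabp4, a fatty acid binding protein of macrophages and adipocytes, was at 267.23, 239.79, 238.03 and 241.56 TPM in Treg and 190.26, 175.26, 195.66 and 190.42 TPM in Tconv libraries (log2 0.39). Clec7a, the beta-glucan receptor Dectin-1, was at 65.49, 72.76, 72.52 and 74.78 TPM in Treg and 52.20, 54.17, 57.35 and 53.21 TPM in Tconv libraries (log2 0.39). Il7r, the interleukin-7 receptor, was at 105.20 to 111.21 TPM in Treg and 87.58 to 94.76 TPM in Tconv libraries (log2 0.25).

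Among the fallen genes outside the naming rule and chosen after their values were seen, Csf1 encodes macrophage colony stimulating factor, the growth factor of these cells. It was at 5.97, 4.02, 6.15 and 4.55 TPM in Treg, 14.08, 16.26, 13.88 and 14.21 TPM in Tconv and 7.21 to 10.01 TPM in non-phagocytic libraries (log2 -1.35). Fn1, the matrix glycoprotein fibronectin, did not follow the order of Acta2 and Col1a1: it was at 13.11 to 15.37 TPM in Treg, 29.01 to 31.40 TPM in Tconv and 32.81 to 36.34 TPM in non-phagocytic libraries (log2 -1.03).

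Ribosomal RNA genes were called higher in Treg libraries, also chosen after their values were seen. CT010467.1, annotated as an rRNA on chromosome 17, had means of 2085 TPM in Treg, 1486 TPM in Tconv and 1142 TPM in non-phagocytic libraries. The mitochondrial rRNA genes mt-Rnr1 and mt-Rnr2 had log2 fold changes of 0.35 and 0.31. CT010467.1 was called in 17 of 28 alternatives, mt-Rnr1 in 21 and mt-Rnr2 in 15. The part of rRNA carried through polyA selection in other results was not tested.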
